A study of Mus musculus with 28 samples.

Results

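Differentiation was followed in mouse embryonic stem cells (mESCs) that lack Eed, from self-renewing culture to day 5 embryoid bodies (EBs), the aggregates that form when stem cells are left to differentiate. The change was taken in 4 of the 28 libraries, 2 of Eed null EBs and 2 of Eed null mESCs, after the EB and mESC expression tables had been joined by gene ID across 37583 genes. The same change in 2 wild type EB libraries and 2 wild type mESC libraries of the parental line was used as the comparison. The Eed null cells and the wild type cells are both of the CJ7 background. Per the labels, mESCs were kept on mouse embryonic fibroblast feeders in medium with LIF and both inhibitors of the 2i cocktail (1 µM PD0325901, which blocks MEK, and 3 µM CHIR99021, which blocks GSK3). Feeders were removed by letting them settle on a dish before lysis. EBs were collected on day 5 after LIF was withdrawn. Total RNA was depleted of ribosomal RNA and sequenced. Nothing in the labels tells whether both libraries of a group were grown separately. The p-values therefore compare the groups with the spread between these libraries only, which may be technical. Which exons of Eed were removed is not stated in the labels, and each genotype is represented by a single named line.

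Eed is the subunit of Polycomb repressive complex 2 (PRC2) that binds trimethylated lysine 27 of histone H3 and holds the catalytic subunit in its active form, so that cells without it lose this mark. PRC2 keeps developmental regulators silent in stem cells, and embryos without Eed arrest around gastrulation. EBs form an outer layer of primitive endoderm, which gives visceral endoderm (a nutrient-absorbing epithelium that secretes carrier proteins and lipoproteins) and parietal endoderm (which lays down basement membrane), around a core in which naive pluripotency is left, a primed epiblast state is passed through, and primitive streak and mesoderm appear.

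The values are reads scaled by gene length and library depth (RPKM). Log2 changes were taken on log2(RPKM + 0.5) and are given as EB minus mESC with the standard error (SE) of the fit, which understates the change of genes of low level. A gene was tested if it reached 0.25 RPKM in at least 2 of the 8 libraries, and was called when the limma p-value, adjusted by Benjamini-Hochberg over the 21210 genes tested, was below 0.05. Every adjusted p below is of this kind. Counts in gene lists stand beside the shares over all genes tested, 12.5% called higher and 19.9% lower in Eed null cells. These shares were 19.6% and 28.6% in wild type, and 9.37% positive and 7.57% negative for the difference between genotypes. A call is said to be held when it was made again with each library left out in turn (the 4 Eed null libraries for a change, all 8 for a difference), and calls that were not held were lost most often without an Eed null mESC library. A gene that a left-out library put under the level filter also counts as not held. The depth read from the lowest values was 34800000 to 39800000 reads in Eed null EBs, 13500000 to 13900000 reads in Eed null mESCs, 31400000 to 32000000 reads in wild type EBs and 11100000 to 13600000 reads in wild type mESCs, so stage coincides with table and depth in both genotypes. The 2 Eed null EB libraries differed from each other by gene length. Library 1 minus library 2 had a median log2 difference of 0.12 over the shortest of 4 equal bins of genes by exon length and -0.27 over the longest, whereas this difference ran between 0.01 and -0.03 in Eed null mESCs. As a mean over genes, the variance between libraries was 127 times the sampling variance in Eed null EBs and 4.22 times in Eed null mESCs. An estimate from the median gene gave 28.2 and 2.02 times. The means in wild type were 54.4 times in EBs and 22.5 times in mESCs.

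The EB and mESC tables also differed for genes that have near-identical copies (another gene with at least 200 bases at 90% identity). Summed over 83 ribosomal protein genes, which encode the protein part of the ribosome, RPKM was 64067 and 43228 in Eed null EBs, against 22843 and 21784 in Eed null mESCs. Processed pseudogenes, of which 2051 were tested, summed to 4984 and 3890 RPKM in Eed null EBs, against 30987 and 29772 RPKM in Eed null mESCs. In sum, ribosomal protein genes were therefore listed higher and processed pseudogenes lower in EBs, with no overlap between stages. The pseudogenes were taken as a class and were not matched to their parent genes. Of 3167 protein-coding genes with a near-identical copy, 664 were called higher and 525 lower in Eed null cells (median log2 change 0.05). Of the ribosomal protein genes, 68 were called higher and 2 lower (median log2 change 2.17), where 12.5% of all tested genes were called higher and 19.9% lower. In wild type cells 75 were higher and 3 lower (median 2.74), where 19.6% of all genes were higher and 28.6% lower. Reads of parents and copies may have been assigned in another way in each table. This was not tested. Copies are stated below for many genes but not for all, and a change of any gene with copies is uncertain. Among genes named without their copies, Aebp2, Dnmt3b, Apoa4 and Apoc2 have 1 each and Dppa3 has 3. The difference between the genotypes' changes is free of an effect of the tables only where that effect has the same log2 size in both genotypes. Over the ribosomal protein genes it was called negative for 21 and positive for 2 of 83 (median -0.70), where 7.57% of all genes were called negative and 9.37% positive.

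**Figure D1:**
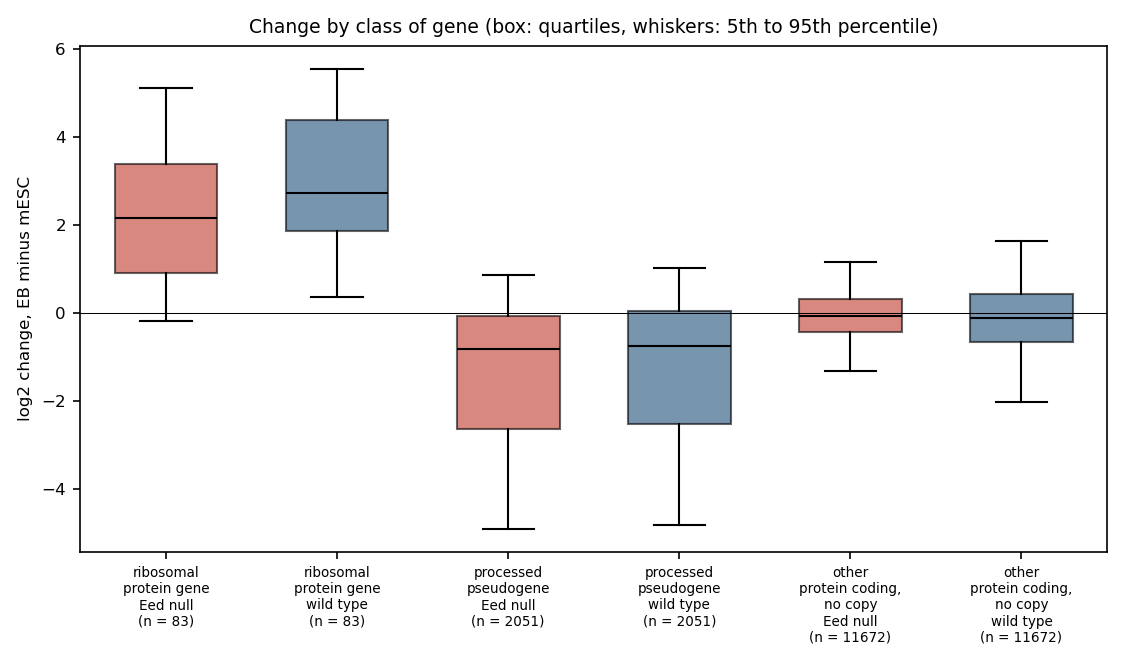
Log2 change from mESC to EB (vertical axis) for ribosomal protein genes (n = 83), processed pseudogenes (n = 2051) and other protein-coding genes without a near-identical copy (n = 11672), in Eed null and wild type cells. Boxes are quartiles and whiskers the 5th to 95th percentiles. Ribosomal protein genes lie mostly above 0 and pseudogenes mostly below it in both genotypes, while the third class is centred near 0.

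Visceral endoderm products held 5 of the 12 largest rises in Eed null cells. Of the 19 genes on the list that were tested, 16 rose in Eed null cells and 1 fell, with a median log2 change of 3.21, against 12.5% of all tested genes called higher, 19.9% lower and a median of -0.08 over all. In wild type cells 8 of the 19 rose and 2 fell (median 0.15, against -0.10 over all genes). The difference between the genotypes was called positive for 13 of the 19 and negative for 1, against 9.37% and 7.57% of all genes. The 100 bases upstream of the start of Afp, Apob and Cubn, 3 products with large differences between genotypes and with matched promoters, chosen after their values were seen, show what lies in front of them. Capitals mark GTTAA or its reverse complement TTAAC, the core of sites for the HNF1 factors of endoderm, and TATAAA, the letters of a TATA box. TATAAA begins at -7 from the listed start in Afp and at -60 in Apob. Whether it serves as a TATA box there was not tested. Sequences are from RefSeq on GRCm38.p6, 5′ to 3′ on the gene's strand.
Afp, chr5:90490614-90490713 (plus strand): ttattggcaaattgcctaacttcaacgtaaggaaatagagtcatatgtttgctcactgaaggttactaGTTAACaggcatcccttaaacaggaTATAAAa
Apob, chr12:7977577-7977676 (plus strand): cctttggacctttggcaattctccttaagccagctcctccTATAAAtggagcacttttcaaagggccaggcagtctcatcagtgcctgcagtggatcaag
Cubn, chr2:13491877-13491976 (minus strand): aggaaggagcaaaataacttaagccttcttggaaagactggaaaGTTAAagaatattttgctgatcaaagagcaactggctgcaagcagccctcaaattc
Over the 250 bases upstream of the start, GTTAA on either strand was found in 6 of the 15 list promoters matched by symbol and in 21.7% of 27025 promoters. TATAAA on the gene's strand was found in 3 of the 15 and in 8.12% of all. AGATAA, a form of the GATA site, and CAAAGTCCA, a form of the HNF4 site, were each found in 0 of the 15 on either strand, against 10.3% and 0.381% of all. A match describes these letters only.

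The carrier proteins and lipoproteins rose by far more than the spread between libraries. Afp, the main serum protein of the fetus, had 78.0 and 96.6 RPKM in Eed null EBs, against 0.207 and 0.107 RPKM in Eed null mESCs. Its log2 change was 7.06 ± 0.24 (SE, adjusted p = 3.45e-06). Wild type libraries had 1.84 and 1.08 RPKM in EBs, against 0 and 0.0709 RPKM in mESCs, so all 4 fell far below the Eed null EBs, and the difference of the changes was 5.21 ± 0.34 (adjusted p = 0.000423). Apob, the structural protein of lipoproteins, had 64.2 and 79.7 RPKM in Eed null EBs, against 0.322 and 0.285 RPKM in Eed null mESCs (log2 change 6.49 ± 0.21, adjusted p = 2.82e-06). Wild type cells had 1.77 and 1.47 RPKM of it in EBs, against 0.071 and 0.236 RPKM in mESCs. Both genotypes thus rose, and the difference was 4.78 ± 0.29 (adjusted p = 0.000398). Ttr, a carrier of thyroid hormone and retinol, reached 133 and 118 RPKM in Eed null EBs, against 0 and 0.0607 RPKM in Eed null mESCs (log2 change 7.89 ± 0.22, adjusted p = 2.06e-06). In wild type EBs it had 19.9 and 12.7 RPKM, and it was listed at 0 in both wild type mESC libraries. Mttp, which loads lipid onto the Apob protein, had 25.0 and 20.5 RPKM in Eed null EBs, against 1.97 and 2.02 RPKM in Eed null mESCs (log2 change 3.21 ± 0.18, adjusted p = 1.73e-05). In bulk RNA, a larger share of endoderm cells and more RNA per endoderm cell cannot be told apart.

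The scavenger receptors of this epithelium followed. Cubn, the endocytic receptor cubilin, had 29.1 and 40.6 RPKM in Eed null EBs, against 0.229 and 0.291 RPKM in Eed null mESCs, and 1.00 and 1.16 RPKM in wild type EBs, against 0.0816 and 0.0604 RPKM in wild type mESCs. The log2 change was 5.52 ± 0.21 in Eed null cells (adjusted p = 4.67e-06), and the difference from wild type was 4.05 ± 0.30 (adjusted p = 0.000614); its exons overlap the predicted gene Gm13270. Amn, the membrane partner of cubilin, had 27.2 and 26.4 RPKM in Eed null EBs, against 3.25 and 4.37 RPKM in Eed null mESCs, while no wild type library passed 0.853 RPKM. Lrp2 (megalin) had 23.7 and 29.0 RPKM in Eed null EBs, against 5.69 and 6.37 RPKM in Eed null mESCs, and wild type libraries of both stages lay between 2.14 and 3.43 RPKM. The differences from wild type were 2.30 ± 0.36 for Amn (adjusted p = 0.00765) and 2.39 ± 0.26 for Lrp2 (adjusted p = 0.00216). Both receptors were already higher in Eed null mESCs than in any wild type library.

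Other products of this class differed less, or in another way, between genotypes. Spink3, a secreted trypsin inhibitor and the largest rise of all (log2 change 8.90 ± 0.34, adjusted p = 4.56e-06), had 1137.5 and 1069.0 RPKM in Eed null EBs, against 2.91 and 1.06 RPKM in Eed null mESCs. In wild type it had 728 and 546 RPKM in EBs and was listed at 0 in both mESC libraries, and no difference was called (adjusted p = 0.0868). S100g, a calcium-binding protein that is on no list and was among the 12 largest rises, had 509 and 358 RPKM in Eed null EBs, against 2.70 and 1.55 RPKM in Eed null mESCs, and 12.6 and 13.1 RPKM in wild type EBs. Apoe had 485 and 379 RPKM in Eed null EBs, against 98.8 and 89.4 RPKM in Eed null mESCs, and rose in wild type as well, with no difference called (adjusted p = 0.408). Soat2, which esterifies cholesterol, moved in opposite directions: it had 14.2 and 13.0 RPKM in Eed null EBs, against 0.877 and 0.771 RPKM in Eed null mESCs (log2 change 3.41 ± 0.16, adjusted p = 1.06e-05). Wild type libraries had 0.288 and 0.297 RPKM in EBs, against 2.42 and 2.63 RPKM in mESCs, and the difference was 5.35 ± 0.23 (adjusted p = 0.000117). Apoc2, Rbp4, Apoa1, Apoa4 and Apom also rose in Eed null cells and were not called higher in wild type. Apoa4 was listed at 0 in both Eed null mESC libraries and had 4.36 and 3.93 RPKM in Eed null EBs. The one product that fell was Fgg, the gamma chain of fibrinogen, with 0.277 and 0.124 RPKM in Eed null EBs, against 0.966 and 0.996 RPKM in Eed null mESCs, a call that was lost with all 16 CJ7 libraries in the fit (adjusted p = 0.265). Apoa2 and Trf were not called (adjusted p = 0.184 and 0.217). Of the 16 rises 15 were held, and of the 13 positive differences 11; Apoa4 was not held in either only because it fell under the level filter.

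**Figure D2:**
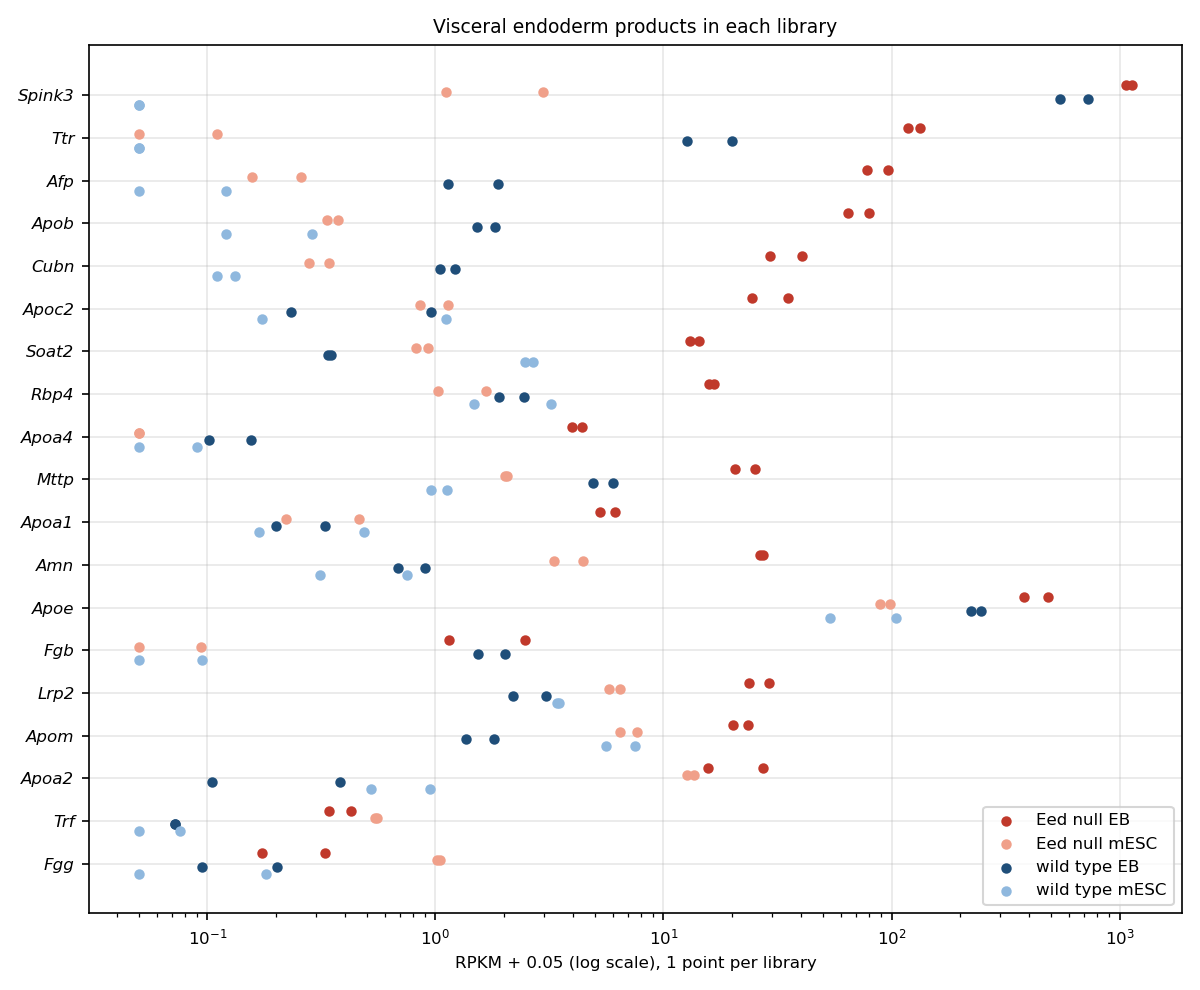
RPKM + 0.05 on a log axis for the 19 visceral endoderm products (1 gene a row, 1 point a library) in Eed null EBs, Eed null mESCs, wild type EBs and wild type mESCs. The Eed null EB points (dark red) stand to the right of all other points for most genes, including Afp, Apob, Cubn and Soat2, while Spink3 is high in EBs of both genotypes and Fgg is low throughout.

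A further 3 genes without copies, named after their values were seen, had the same profile. Tfec, a relative of the lysosomal transcription factor Tfeb, had 17.7 and 13.0 RPKM in Eed null EBs, against 0.0404 and 0.0416 RPKM in Eed null mESCs, and did not exceed 0.787 RPKM in wild type. Lgals2, a galectin, had 23.4 and 15.9 RPKM in Eed null EBs, against 0.244 and 0.126 RPKM in Eed null mESCs, and at most 0.433 RPKM in wild type. Tff3, a secreted trefoil peptide, had 16.7 and 11.1 RPKM in Eed null EBs and was listed at 0 in the other 6 libraries. The differences from wild type were 4.01 ± 0.36 for Tfec (adjusted p = 0.00108) and 4.13 for Lgals2.

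Genes listed as extraembryonic endoderm factors, mainly transcription factors, rose in both genotypes, and mostly not more in Eed null cells. Eomes and Foxa2 are also on the streak list and Gata4 on the cardiac list, so a rise does not mark extraembryonic endoderm alone. Of 16 tested, 12 rose and 0 fell in Eed null cells (median log2 change 1.56), 12 rose and 0 fell in wild type (median 2.19), and the difference was called positive for 1 and negative for 5, of which 0 and 3 were held. The exception was Hnf4a, a nuclear receptor that drives apolipoprotein genes, with 5.00 and 5.49 RPKM in Eed null EBs, against 0.326 and 0.380 RPKM in Eed null mESCs. Wild type EBs had 0.998 and 1.63 RPKM of it, against 0.464 and 0.305 RPKM in wild type mESCs, and the difference was 1.73 ± 0.32 (adjusted p = 0.0136). Gata6, the factor at the top of the extraembryonic endoderm cascade, showed the reverse, with 3.92 and 6.17 RPKM in Eed null EBs, against 2.04 and 2.06 RPKM in Eed null mESCs. Wild type EBs had 10.7 and 13.1 RPKM, against 0.567 and 0.484 RPKM in wild type mESCs. The rise of Gata6 in Eed null cells was 1.09 ± 0.23 (adjusted p = 0.0106), it was no longer called without either Eed null mESC library (adjusted p = 0.0644 and 0.0612), and the difference was -2.50 ± 0.32 (adjusted p = 0.00385). Sox17, which acts in endoderm of both kinds, had 7.48 and 7.72 RPKM in Eed null EBs, against 0.680 and 0.504 RPKM in Eed null mESCs, and 13.5 and 15.0 RPKM in wild type EBs, against 0.110 and 0.0358 RPKM in wild type mESCs. Its smaller rise gave a difference of -1.79 ± 0.25 (adjusted p = 0.00503). Gata4 had 7.05 and 9.51 RPKM in Eed null EBs, against 1.39 and 0.964 RPKM in Eed null mESCs (log2 change 2.39 ± 0.23, adjusted p = 0.000267), levels that overlapped those of wild type EBs, 7.52 and 9.52 RPKM. The receptor Pdgfra rose by 3.50 ± 0.20 (adjusted p = 2.07e-05), Foxa2 by 3.10 ± 0.19 (adjusted p = 2.59e-05) and the endocytic adaptor Dab2 by 2.98 ± 0.31. Foxa1, Hhex, Nr2f2 and Sall4 were not called.

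Parietal endoderm and basement membrane genes divided. Of 14 tested, 6 rose and 2 fell in Eed null cells (median log2 change 0.48), and 5 rose and 5 fell in wild type (median 0.16). Over all genes 12.5% rose and 19.9% fell in Eed null cells, and 19.6% rose and 28.6% fell in wild type. Lama1, the laminin alpha chain of the first basement membranes, had 34.2 and 48.5 RPKM in Eed null EBs, against 9.83 and 10.3 RPKM in Eed null mESCs (log2 change 1.97 ± 0.18, adjusted p = 0.000227). It moved the other way in wild type, with 4.47 and 4.50 RPKM in EBs, against 12 and 10.1 RPKM in mESCs, and the difference was 3.17 ± 0.26 (adjusted p = 0.000841). Srgn, a proteoglycan of secretory granules, had 13.8 and 12.3 RPKM in Eed null EBs, against 1.42 and 1.44 RPKM in Eed null mESCs, with no wild type library above 0.945 RPKM (difference 3.18 ± 0.31, adjusted p = 0.00145). The type IV collagen genes Col4a1 and Col4a2, which overlap each other, rose by 2.04 ± 0.16 and 2.06 ± 0.16. Thbd, the thrombin receptor thrombomodulin, fell to 0.679 and 0.778 RPKM in Eed null EBs, against 6.07 and 9.59 RPKM in Eed null mESCs, and Nid1, which links laminin to collagen, fell by 1.21 ± 0.21. The matricellular gene Sparc, listed first, was not called (adjusted p = 0.378).

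Naive pluripotency genes fell less in Eed null cells than in wild type. Of 18 tested, 10 fell and 0 rose in Eed null cells (median log2 change -0.96), whereas 17 fell in wild type (median -3.69), and the difference was called positive for 12 and negative for 0 (median 2.26). Of the 10 falls 7 were held, and of the 12 differences 10. Over all genes 19.9% fell in Eed null cells and 28.6% in wild type, and 9.37% had a positive difference. Of the 18 genes 6 have copies, and among the rest 7 fell and 0 rose in Eed null cells (median -1.39). Zfp42 (Rex1) had 274 and 194 RPKM in Eed null EBs, against 299 and 291 RPKM in Eed null mESCs, a change that was not called (-0.35 ± 0.26, adjusted p = 0.345). In wild type it had 9.08 and 6.80 RPKM in EBs, against 282 and 441 RPKM in mESCs. The wild type EBs stood apart from the other 6 libraries, and the difference was 5.05 ± 0.37 (adjusted p = 0.000613). Nr0b1 (Dax1), an orphan nuclear receptor of the naive network, had 34.2 and 32.6 RPKM in Eed null EBs, against 42.3 and 39.1 RPKM in Eed null mESCs, also not called (adjusted p = 0.235). Wild type had 0.281 and 0.138 RPKM of it in EBs, against 22.3 and 28.2 RPKM in mESCs, a difference of 4.90 ± 0.23 (adjusted p = 0.000165). Esrrb, a nuclear receptor downstream of GSK3 inhibition, had 12.9 and 26.9 RPKM in Eed null EBs, against 49.9 and 51.4 RPKM in Eed null mESCs, and 0.252 and 0.407 RPKM in wild type EBs, against 56.9 and 52.7 RPKM in wild type mESCs. It fell by 1.42 ± 0.30 in Eed null cells (adjusted p = 0.0115). That call was lost without Eed null mESC library 1 (-1.44, adjusted p = 0.0565) or 2 (-1.40, adjusted p = 0.0604), while the difference of 4.64 ± 0.43 (adjusted p = 0.0012) was kept.

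The largest naive falls called in Eed null cells were of Socs3, Klf4, Prdm14 and Tfcp2l1. Socs3, the feedback inhibitor of LIF signalling, had 7.13 and 7.93 RPKM in Eed null EBs, against 45.4 and 42.4 RPKM in Eed null mESCs, and 3.18 and 6.30 RPKM in wild type EBs, against 49.6 and 32.1 RPKM in wild type mESCs. The EB libraries of both genotypes lay below all mESC libraries (-2.47 ± 0.31 in Eed null cells, adjusted p = 0.00101), and no difference from wild type was called (adjusted p = 0.435). Klf4 had 3.40 and 6.29 RPKM in Eed null EBs, against 22.7 and 22.9 RPKM in Eed null mESCs (-2.18 ± 0.25, adjusted p = 0.000643), again with no called difference (adjusted p = 0.0798). Prdm14 had 6.45 and 6.26 RPKM in Eed null EBs, against 29.5 and 28.9 RPKM in Eed null mESCs, and Tfcp2l1 had 15.4 and 27.1 RPKM in Eed null EBs, against 82.1 and 86.7 RPKM in Eed null mESCs. Both fell further in wild type, with differences of 2.34 ± 0.25 and 3.25. Dppa3 and Klf2 were not called (adjusted p = 0.588 and 0.146) where wild type cells had log2 changes of -2.46 and -4.13.

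Core pluripotency factors gave 2 rises and 4 falls among 15 in Eed null cells (median log2 change -0.35), against 1 rise and 11 falls in wild type (median -1.92). The difference was called positive for 8, of which 4 were held, and negative for 1. Over all genes 12.5% rose and 19.9% fell in Eed null cells, and 19.6% rose and 28.6% fell in wild type. Of the 15 factors 8 have copies, and among the rest 1 rose and 1 fell in Eed null cells (median -0.03). Pou5f1 (Oct4) had 179 and 169 RPKM in Eed null EBs, against 288 and 285 RPKM in Eed null mESCs (-0.72 ± 0.11, adjusted p = 0.00275). Wild type had 47.9 and 50.2 RPKM in EBs, against 280 and 300 RPKM in mESCs, a difference of 1.84 ± 0.16 (adjusted p = 0.00091); Pou5f1 has 2 near-identical copies and overlaps Gm19553, which makes its level uncertain. Sox2, without a copy, had 28.1 and 49.6 RPKM in Eed null EBs, against 57.5 and 59.2 RPKM in Eed null mESCs (-0.64 ± 0.26, adjusted p = 0.105, not called). Wild type had 4.07 and 2.98 RPKM in EBs, against 84.9 and 88.8 RPKM in mESCs, a difference of 3.82 ± 0.37 (adjusted p = 0.00135). Nanog, with 1 copy, had 188 and 184 RPKM in Eed null EBs, against 632 and 623 RPKM in Eed null mESCs (-1.75 ± 0.25, adjusted p = 0.00182). Its difference of 1.87 ± 0.35 (adjusted p = 0.014) was no longer called without Eed null mESC library 1 (1.88) or 2 (1.86). Lin28a, an RNA-binding protein that blocks the let-7 microRNAs, had the negative difference: it rose in both genotypes, with 78.9 and 108 RPKM in Eed null EBs, against 22.2 and 24.4 RPKM in Eed null mESCs, and further in wild type (difference -1.20 ± 0.23, adjusted p = 0.0164, not held). Dppa4, which has 2 copies, rose in Eed null cells (1.49 ± 0.22, adjusted p = 0.0023) and fell in wild type, a difference of 3.16 ± 0.31.

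Primed epiblast genes rose, with 11 of 13 called higher and 0 lower in Eed null cells (median log2 change 1.22), beside 10 higher and 1 lower in wild type (median 2.27). Of the 11 rises 6 were held. The difference was called negative for 5 and positive for 1 (median -0.57). Fgf8, a ligand of epiblast and streak, had 7.62 and 12.5 RPKM in Eed null EBs, against 0.0395 and 0 RPKM in Eed null mESCs (4.30 ± 0.26, adjusted p = 2.78e-05). Fgf5, the standard marker of primed epiblast, had 2.74 and 4.75 RPKM in Eed null EBs, against 0.0573 and 0.0295 RPKM in Eed null mESCs (2.92 ± 0.32, adjusted p = 0.000532). Otx2, a homeobox factor of the exit from the naive state, had 8.98 and 13.5 RPKM in Eed null EBs, against 1.85 and 1.65 RPKM in Eed null mESCs (2.36 ± 0.24, adjusted p = 0.00034). No difference from wild type was called for these 3 genes (adjusted p = 0.368, 0.177 and 0.0543). Naive and primed markers were thus both present in the RNA of Eed null EBs; whether they came from the same cells was not measured. Cldn6, an epithelial tight junction protein, had 171 and 145 RPKM in Eed null EBs, against 23.7 and 21.9 RPKM in Eed null mESCs, and rose further in wild type (difference -1.80 ± 0.28, adjusted p = 0.00719, held). Dnmt3b, a de novo DNA methyltransferase, was called higher by a narrow margin (0.96 ± 0.30, adjusted p = 0.0484), which was not held, and its difference was -2.31 ± 0.43 (adjusted p = 0.0138, not held).

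Primitive streak and nascent mesoderm genes rose less in Eed null cells. Of 20 tested, 11 rose and 1 fell (median log2 change 1.36), against 14 and 2 in wild type (median 3.28), and the difference was called negative for 13 and positive for 0 (median -1.94). All 12 changes and 9 of the 13 differences were held. T (brachyury), the pan-mesodermal factor of the streak, had 31.8 and 39.8 RPKM in Eed null EBs, against 1.21 and 1.02 RPKM in Eed null mESCs (4.48 ± 0.18, adjusted p = 5.16e-06). Wild type had 57.5 and 69.4 RPKM of it in EBs, against 0.117 and 0.0636 RPKM in mESCs, so T was lower in Eed null EBs and higher in Eed null mESCs than in wild type of that stage (difference -2.27 ± 0.25, adjusted p = 0.00215). Mesp1, which marks the first cardiac mesoderm, showed a far larger gap, with 1.61 and 1.03 RPKM in Eed null EBs, against 0 and 0.0580 RPKM in Eed null mESCs. Wild type EBs had 32.2 and 60.9 RPKM, and wild type mESCs were listed at 0. The Cripto relative Cfc1, whose exons overlap Prss40, had 6.86 and 5.16 RPKM in Eed null EBs, against 0.208 and 0.215 RPKM in Eed null mESCs, and 51.5 and 81.7 RPKM in wild type EBs (difference -3.67 ± 0.38, adjusted p = 0.00179). Eomes, a T-box factor of streak and endoderm, rose by 1.35 ± 0.26 (adjusted p = 0.00676) and its difference just missed the threshold (-1.30, adjusted p = 0.0506). Mixl1, a homeobox factor of the streak, was not called in Eed null cells (adjusted p = 0.0914). Gsc, the organizer homeobox gene, was the single fall, with 4.38 and 2.70 RPKM in Eed null EBs, against 11.9 and 13.2 RPKM in Eed null mESCs (-1.72 ± 0.24, adjusted p = 0.00184). It rose in wild type, with 8.77 and 6.81 RPKM in EBs, against 3.58 and 2.73 RPKM in mESCs (difference -2.90 ± 0.34, adjusted p = 0.00286).

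**Figure D3:**
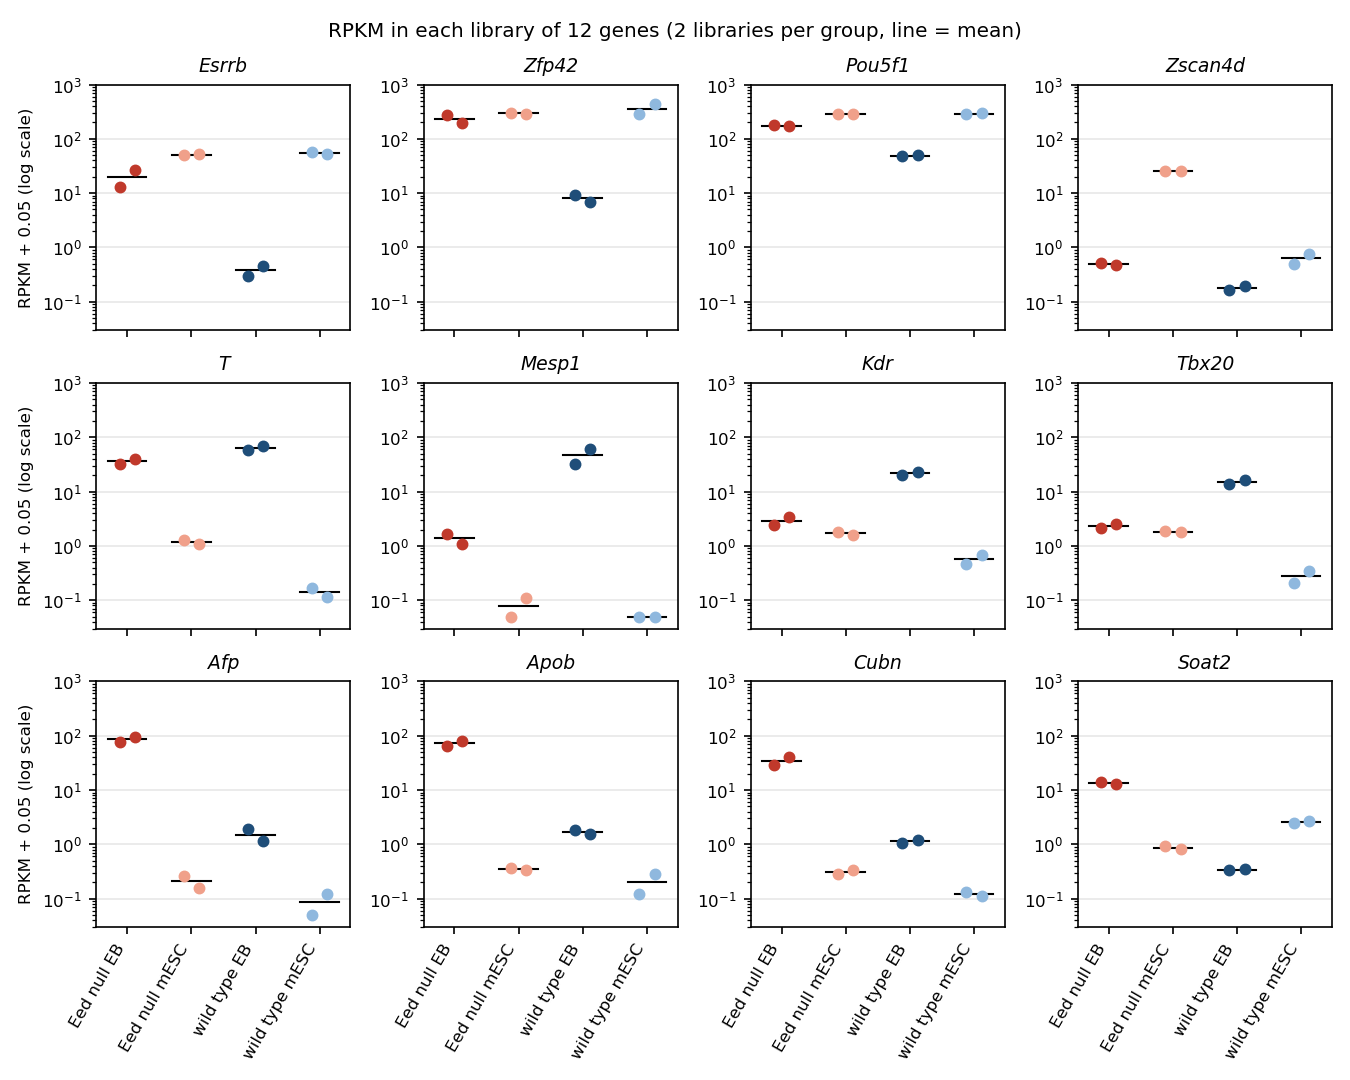
RPKM + 0.05 on a log axis for 12 genes, 1 panel each, in Eed null EBs, Eed null mESCs, wild type EBs and wild type mESCs (points are libraries, lines group means). Esrrb, Zfp42 and Pou5f1 are lowest in wild type EBs, Zscan4d is high in Eed null mESCs, T, Mesp1, Kdr and Tbx20 are highest in wild type EBs, and Afp, Apob, Cubn and Soat2 are highest in Eed null EBs.

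Cardiac, lateral and blood-forming genes also differed from wild type in part, by less at the median than streak genes. Of 20 cardiac and lateral mesoderm genes, 6 rose and 5 fell in Eed null cells (median log2 change 0.19), and the difference was called negative for 9 and positive for 1 (median -1.08). In wild type 10 rose and 2 fell (median 0.74). The shares over all genes were 12.5% higher and 19.9% lower in Eed null cells, and 19.6% and 28.6% in wild type. Differences were negative for 7.57% of all genes and positive for 9.37%. Of the 6 rises 3 were held, of the 5 falls 1 and of the 9 differences 4. Tbx20, a T-box factor of the heart, had 2.09 and 2.53 RPKM in Eed null EBs, against 1.84 and 1.73 RPKM in Eed null mESCs (0.30 ± 0.19, adjusted p = 0.28). Wild type had 13.8 and 16.4 RPKM in EBs, against 0.161 and 0.295 RPKM in mESCs (difference -4.13 ± 0.27, adjusted p = 0.000423). Hand1, a factor of lateral mesoderm and trophoblast, behaved likewise, with 1.12 and 1.93 RPKM in Eed null EBs, against 0.715 and 0.843 RPKM in Eed null mESCs (adjusted p = 0.1), and a difference of -3.74 ± 0.36 (adjusted p = 0.00139). Bmp4, a ligand that acts in mesoderm formation, did rise in Eed null cells, with 14.1 and 14.2 RPKM in EBs, against 2.40 and 3.20 RPKM in mESCs (2.16 ± 0.21, adjusted p = 0.000283). Myl7, the atrial myosin light chain, had 9.74 and 5.84 RPKM in Eed null EBs, against 51.4 and 42.3 RPKM in Eed null mESCs, a fall of -2.55 ± 0.24 (adjusted p = 0.000256). Of 17 blood and endothelial genes, 6 rose and 1 fell in Eed null cells (median 0.27), of which 4 and 1 were held, and the difference was called negative for 4 and positive for 2 (median -0.67). In wild type 9 of them rose and 2 fell (median 0.99). Kdr, the VEGF receptor of blood and vessel progenitors, had 2.42 and 3.31 RPKM in Eed null EBs, against 1.76 and 1.56 RPKM in Eed null mESCs. That rise was at the threshold (0.63 ± 0.20, adjusted p = 0.0499) and was lost without EB library 2 or either mESC library and under several other settings, among them all 16 CJ7 libraries (adjusted p = 0.0918), the lower pseudocount (0.0642) and no level filter (0.0684). Wild type Kdr had 20.5 and 22.5 RPKM in EBs, against 0.408 and 0.619 RPKM in mESCs (difference -3.82 ± 0.28, adjusted p = 0.000654). The other VEGF receptor gene, Flt1, rose to 4.86 and 7.02 RPKM in Eed null EBs, against 0.663 and 0.780 RPKM in Eed null mESCs, with a difference from wild type of -0.06 that was not called. Pecam1, an adhesion molecule of endothelium and of naive stem cells, fell to 5.51 and 5.48 RPKM in Eed null EBs, against 29.9 and 27.8 RPKM in Eed null mESCs. Tal1, the master factor of blood, was not called (adjusted p = 0.404), and the embryonic globin Hbb-bh1 was listed at 0 and 0.200 RPKM in Eed null EBs and at 0 in both mESC groups.

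Genes of the 2-cell stage, which mark a rare totipotent-like state in stem cell cultures, fell in Eed null cells on differentiation. Of 14 tested, 13 fell and 0 rose (median log2 change -3.24), against 4 falls in wild type (median -0.30), and the difference was called negative for 11. Of the 13 falls 7 were held, and of the 11 differences 5. The other 6 of each were called in every refit that tested them and were under the level filter in the rest. Zscan4d, of the telomere-regulating Zscan4 cluster, had 0.478 and 0.418 RPKM in Eed null EBs, against 25.0 and 25.4 RPKM in Eed null mESCs (-4.76 ± 0.19, adjusted p = 5.19e-06). Wild type had 0.112 and 0.141 RPKM in EBs, against 0.454 and 0.702 RPKM in mESCs, so the level was high in Eed null mESCs alone among these groups. Zscan4d and Zscan4c each have 9 near-identical copies and cannot be told apart with certainty. Of the 14, 10 have copies and all 4 without them fell. Tmem92, a membrane protein without a copy, had 0.213 and 0.145 RPKM in Eed null EBs, against 14.2 and 13.4 RPKM in Eed null mESCs, with no wild type library above 0.428 RPKM (change -4.40 ± 0.21, adjusted p = 9.35e-06). Pramel7 and Pramel6, of the Prame family of early embryo genes, fell too (-5.63 ± 0.29 for Pramel7, which has 1 copy).

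Germline genes fell, with 18 of 25 called lower and 3 higher in Eed null cells (median log2 change -1.89), beside 19 lower and 4 higher in wild type (median -2.11). Of the 18 falls 14 were held. Dazl, an RNA-binding protein of germ cells, had 1.64 and 2.07 RPKM in Eed null EBs, against 37.4 and 36.4 RPKM in Eed null mESCs (-4.00 ± 0.24, adjusted p = 2.65e-05). Its fall in wild type was deeper, and the difference was 2.22 ± 0.34 (adjusted p = 0.00679). Tex101, a testis surface protein, had 0.811 and 0.765 RPKM in Eed null EBs, against 29.7 and 25.4 RPKM in Eed null mESCs, and at most 0.775 RPKM in wild type. Several germline genes kept a level in Eed null EBs that wild type EBs did not. Dnmt3l, the cofactor of de novo DNA methylation, had 75.6 and 88.0 RPKM in Eed null EBs, against 107 and 99.3 RPKM in Eed null mESCs (adjusted p = 0.0709), and 1.56 and 1.45 RPKM in wild type EBs, against 43.6 and 44.3 RPKM in wild type mESCs (difference 4.14 ± 0.17, adjusted p = 0.000116). Sohlh2, a helix-loop-helix factor of early germ cells, had 14.9 and 12.9 RPKM in Eed null EBs, against 73.6 and 66.2 RPKM in Eed null mESCs, and 0.0539 and 0.0926 RPKM in wild type EBs. Rhox6, an X-linked homeobox gene with 1 copy, went up to 388 and 215 RPKM in Eed null EBs, against 76.1 and 69.0 RPKM in Eed null mESCs (1.99 ± 0.32, adjusted p = 0.00332), and its neighbour Rhox9, likewise with 1 copy, rose by 1.87 ± 0.23. Ddx4, the germ cell helicase listed first, was not called (adjusted p = 0.236).

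Among 32 Hox genes tested, classical targets of PRC2, 3 rose and 3 fell in Eed null cells (median log2 change 0.04), and 3 rose and 14 fell in wild type (median -0.35). The Eed null counts lie below the shares over all genes (12.5% higher, 19.9% lower). The difference was called positive for 9 and negative for 1 (all genes: 9.37% and 7.57%), of which 3 and 0 were held. Hoxd9 had 3.05 and 4.16 RPKM in Eed null EBs, against 1.28 and 1.35 RPKM in Eed null mESCs (1.16 ± 0.20, adjusted p = 0.00416), and 0.174 and 0.186 RPKM in wild type EBs, against 0.869 and 0.976 RPKM in wild type mESCs (difference 2.23 ± 0.28, adjusted p = 0.0034). Hoxd1 rose by 1.25 ± 0.21 (adjusted p = 0.00414). Hoxb13, at the posterior end of its cluster, had 1.29 and 0.714 RPKM in Eed null EBs, against 5.42 and 5.12 RPKM in Eed null mESCs (-1.97 ± 0.24, adjusted p = 0.000803), and Hoxc12 fell by 1.93 ± 0.18. Hoxd13 had 3.13 and 4.50 RPKM in Eed null EBs, against 2.88 and 2.97 RPKM in Eed null mESCs (not called, adjusted p = 0.326), where wild type EBs had 0.0895 and 0.0753 RPKM. The anterior gene Hoxb1 was not called (adjusted p = 0.925), while it reached 1.29 and 0.711 RPKM in wild type EBs. Under quantile scaling the Hox counts were 6 higher and 2 lower with a median of 0.23. Neuroectoderm genes were mostly under the level filter, with 11 of 27 tested, of which 0 rose and 2 fell in Eed null cells (median -0.26): the adhesion molecule Ncam1 (-1.68 ± 0.22) and the filament protein Nes (-1.15, not held). These falls are near the 19.9% over all genes. In wild type 1 of the 11 rose and 4 fell (median -0.22). Pax6 had 0.253 and 0.293 RPKM in Eed null EBs, against 0.102 and 0.105 RPKM in Eed null mESCs, and was not called (adjusted p = 0.101). Sox1 was not analysed here.

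Eed, the deleted gene, was measured in every library. It had 15.8 and 16.3 RPKM in Eed null EBs, against 22.3 and 22.1 RPKM in Eed null mESCs, and 49.6 and 55.3 RPKM in wild type EBs, against 105 and 119 RPKM in wild type mESCs. Eed null libraries thus lay below wild type libraries at both stages without reaching 0. The row counts the whole gene, which has 1 near-identical copy, and does not resolve the deleted part. Its fall with differentiation was -0.46 ± 0.12 (adjusted p = 0.0227) in Eed null cells, a call that was lost without EB library 1 or either mESC library, under quantile scaling (-0.24, adjusted p = 0.168) and with all 16 CJ7 libraries (adjusted p = 0.121), and -1.08 ± 0.12 (adjusted p = 0.000293) in wild type. Of 15 PRC2 genes tested, 3 rose and 5 fell (median log2 change -0.17), of which 1 and 2 were held, where 12.5% of all genes rose and 19.9% fell. Copies are known for 7 of the 15, and among the rest 1 rose and 1 fell (median -0.14). Under quantile scaling 4 of the 15 rose and 2 fell (median 0.03), so the direction of this list depends on scaling. Mtf2, which guides PRC2 to CpG islands, had 56.7 and 52.7 RPKM in Eed null EBs, against 125 and 125 RPKM in Eed null mESCs (-1.18 ± 0.15), and Aebp2, another accessory subunit, fell by 0.97 ± 0.14. The histone-binding subunit Rbbp7 rose (1.61 ± 0.11, with 1 copy), and the catalytic subunit Ezh2 was not called (adjusted p = 0.35). Of 20 PRC1 genes, 2 rose and 0 fell (median 0.21), no more than the 12.5% and 19.9% over all genes, Rybp by 0.93 and Phc2 by 0.80; neither call was held. Among 10 DNA methylation genes, 5 rose and 1 fell (median 0.12), of which 3 and 0 were held. Tet3, which oxidises methylcytosine, had 2.69 and 3.92 RPKM in Eed null EBs, against 0.586 and 0.565 RPKM in Eed null mESCs (1.80 ± 0.22). Dnmt3a had 11.5 and 17.9 RPKM in Eed null EBs, against 4.94 and 4.95 RPKM in Eed null mESCs (1.45 ± 0.21, adjusted p = 0.00216), and had a log2 change of 0.01 in wild type. The maintenance enzyme Dnmt1 was not called (adjusted p = 0.422).

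Imprinted genes rose in both genotypes, with 18 of 33 called higher and 3 lower in Eed null cells (median log2 change 1.11), beside 20 higher and 7 lower in wild type (median 1.02). H19, the maternally expressed RNA, had 2909 and 2234 RPKM in Eed null EBs, against 176 and 157 RPKM in Eed null mESCs (3.94 ± 0.18, adjusted p = 8.26e-06). Wild type had 932 and 823 RPKM in EBs, against 10.3 and 12.2 RPKM in mESCs, so H19 was higher in Eed null cells at both stages while its rise was smaller (difference -2.29 ± 0.25, adjusted p = 0.00215). Igf2, its paternally expressed neighbour and a growth factor, had 37.0 and 36.5 RPKM in Eed null EBs, against 3.10 and 3.55 RPKM in Eed null mESCs (3.29 ± 0.23, adjusted p = 4.99e-05). Wild type had 11.3 and 9.03 RPKM in EBs, against 0.472 and 0.988 RPKM in mESCs (difference 0.14, adjusted p = 0.798); Igf2 has 1 copy and overlaps Igf2as. Cdkn1c, a maternally expressed inhibitor of the cell cycle, had 155 and 135 RPKM in Eed null EBs, against 21.5 and 20.4 RPKM in Eed null mESCs, and at most 2.37 RPKM in wild type (difference 1.65 ± 0.28, adjusted p = 0.00927; 1 copy). Peg10 and Peg3, paternally expressed genes, rose by 3.82 ± 0.34 (adjusted p = 0.000174) and 3.66 ± 0.21. Of the rises 15 were held. The falls were Peg12, Plagl1 and Grb10, and only that of Peg12 was held, which had 4.61 and 4.36 RPKM in Eed null EBs, against 12 and 12.3 RPKM in Eed null mESCs.

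Of 17 trophoblast and keratin genes, 12 rose and 0 fell in Eed null cells (median log2 change 1.35), against 9 and 3 in wild type (median 1.56). Of the 12 rises 8 were held. Cdx2, a factor of trophoblast and posterior mesoderm, had 13.1 and 16.1 RPKM in Eed null EBs, against 3.01 and 4.35 RPKM in Eed null mESCs (1.86 ± 0.25, adjusted p = 0.00139), and 8.43 and 5.63 RPKM in wild type EBs, with both wild type mESC libraries listed at 0. The keratin pair of simple epithelia, Krt8 and Krt18, rose by 3.01 ± 0.23 and 2.32 ± 0.39 and more strongly in wild type; each has 1 copy. Krt7, a keratin of glands and trophoblast without a copy, had 20.2 and 16.2 RPKM in Eed null EBs, against 3.52 and 3.29 RPKM in Eed null mESCs, and at most 1.40 RPKM in wild type (difference 1.72 ± 0.43, adjusted p = 0.0362, not held). Among 11 cell cycle inhibitors and D cyclins, 1 rose (Cdkn1c, held) and 3 fell (0 held, median -0.23) in Eed null cells, where 12.5% of all genes rose and 19.9% fell. In wild type 1 rose and 5 fell (median -0.2). Of 18 p53 targets 3 rose and 2 fell in Eed null cells (median 0.13), close to or below the shares over all genes (12.5% and 19.9%). In wild type 0 rose and 9 fell, where 19.6% of all genes rose and 28.6% fell. The difference was called positive for 6, of which only 1 was held, where 9.37% of all genes were called positive. Gdf15, a stress-induced secreted factor, fell to 0.504 and 0.664 RPKM in Eed null EBs, against 3.38 and 3.85 RPKM in Eed null mESCs. Mdm2, the p53 inhibitor, had a log2 change of 0.13.

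Targets of the pathways that 2i acts on changed in part, with falls in Eed null cells near the share over all genes. Over all genes 12.5% rose and 19.9% fell in Eed null cells, and 19.6% rose and 28.6% fell in wild type. Of 20 MAPK feedback and immediate early genes, 6 rose and 4 fell in Eed null cells (median log2 change 0.19), against 11 and 3 in wild type (median 0.72), and 3 rises and 2 falls were held. Dusp6, a phosphatase induced by ERK, had 36.6 and 40.6 RPKM in Eed null EBs, against 11.3 and 11.7 RPKM in Eed null mESCs (1.7 ± 0.19, adjusted p = 0.000636), and Dusp4 had 24.9 and 42.0 RPKM in Eed null EBs, against 3.61 and 4.05 RPKM in Eed null mESCs. Spry4, an inhibitor of the same pathway, rose by 2.90 ± 0.44. Fos, an immediate early gene, fell to 3.96 and 5.21 RPKM in Eed null EBs, against 30.3 and 27.7 RPKM in Eed null mESCs (-2.55 ± 0.19, adjusted p = 8.3e-05). Wnt targets gave 5 rises and 3 falls among 18 (median 0.32), beside 11 and 3 in wild type (median 2.00), with 9 differences called negative and 1 positive. Of these changes 3 rises and 2 falls were held, and of the 9 differences 7. Axin2, the general feedback target of Wnt signalling, had 5.92 and 9.10 RPKM in Eed null EBs, against 4.81 and 5.39 RPKM in Eed null mESCs (adjusted p = 0.141). Lef1 rose by 1.80 ± 0.26, and Dkk1, a secreted Wnt inhibitor whose rise was not held, had 6.46 and 5.80 RPKM in Eed null EBs, against 2.72 and 2.62 RPKM in Eed null mESCs, but 18.9 and 21.9 RPKM in wild type EBs (difference -3.66). Apcdd1, another Wnt inhibitor, went opposite ways, with 3.77 and 5.01 RPKM in Eed null EBs, against 10.1 and 9.90 RPKM in Eed null mESCs, and 15.0 and 14.3 RPKM in wild type EBs, against 2.53 and 2.65 RPKM in wild type mESCs (difference -3.41 ± 0.22).

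Of 16 retinoic acid genes, 4 rose and 3 fell in Eed null cells (median log2 change 0.47), of which 2 and 2 were held, where 12.5% of all genes rose and 19.9% fell. In wild type 6 rose and 3 fell, and 4 differences were called negative. Cyp26a1, which degrades retinoic acid, had 31.2 and 32.7 RPKM in Eed null EBs, against 0.527 and 0.836 RPKM in Eed null mESCs (4.79 ± 0.17, adjusted p = 4.06e-06), and 97.2 and 82.4 RPKM in wild type EBs, against 0.153 and 0.208 RPKM in wild type mESCs (difference -2.26 ± 0.25, adjusted p = 0.00216). Stra8, a retinoic acid target of germ cells, fell to 0.237 and 0.160 RPKM in Eed null EBs, against 8.51 and 9.72 RPKM in Eed null mESCs, and had a log2 change of -3.44 in wild type. Rarb, a receptor induced by retinoic acid, was not called (adjusted p = 0.85). Of 19 mesenchyme and epithelial transition genes, 6 rose and 6 fell in Eed null cells (median -0.06), with 8 differences called negative, of which 3 were held. In wild type 9 rose and 5 fell (median 0.17), where 19.6% of all genes rose and 28.6% fell. Vim (vimentin) had 48.5 and 52.2 RPKM in Eed null EBs, against 222 and 297 RPKM in Eed null mESCs (-2.34 ± 0.17), and 180 and 158 RPKM in wild type EBs, against 213 and 243 RPKM in wild type mESCs (difference -1.91 ± 0.24, adjusted p = 0.00349). Vim is also made by fibroblasts, whose markers moved with stage as given below. Esrp1, an epithelial splicing factor, rose to 7.29 and 10.2 RPKM in Eed null EBs, against 1.14 and 1.02 RPKM in Eed null mESCs. E-cadherin (Cdh1) rose in Eed null cells (0.85, adjusted p = 0.021), with a change of -0.74 in wild type and a difference of 1.59, but neither its rise nor its difference was held.

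**Figure D4:**
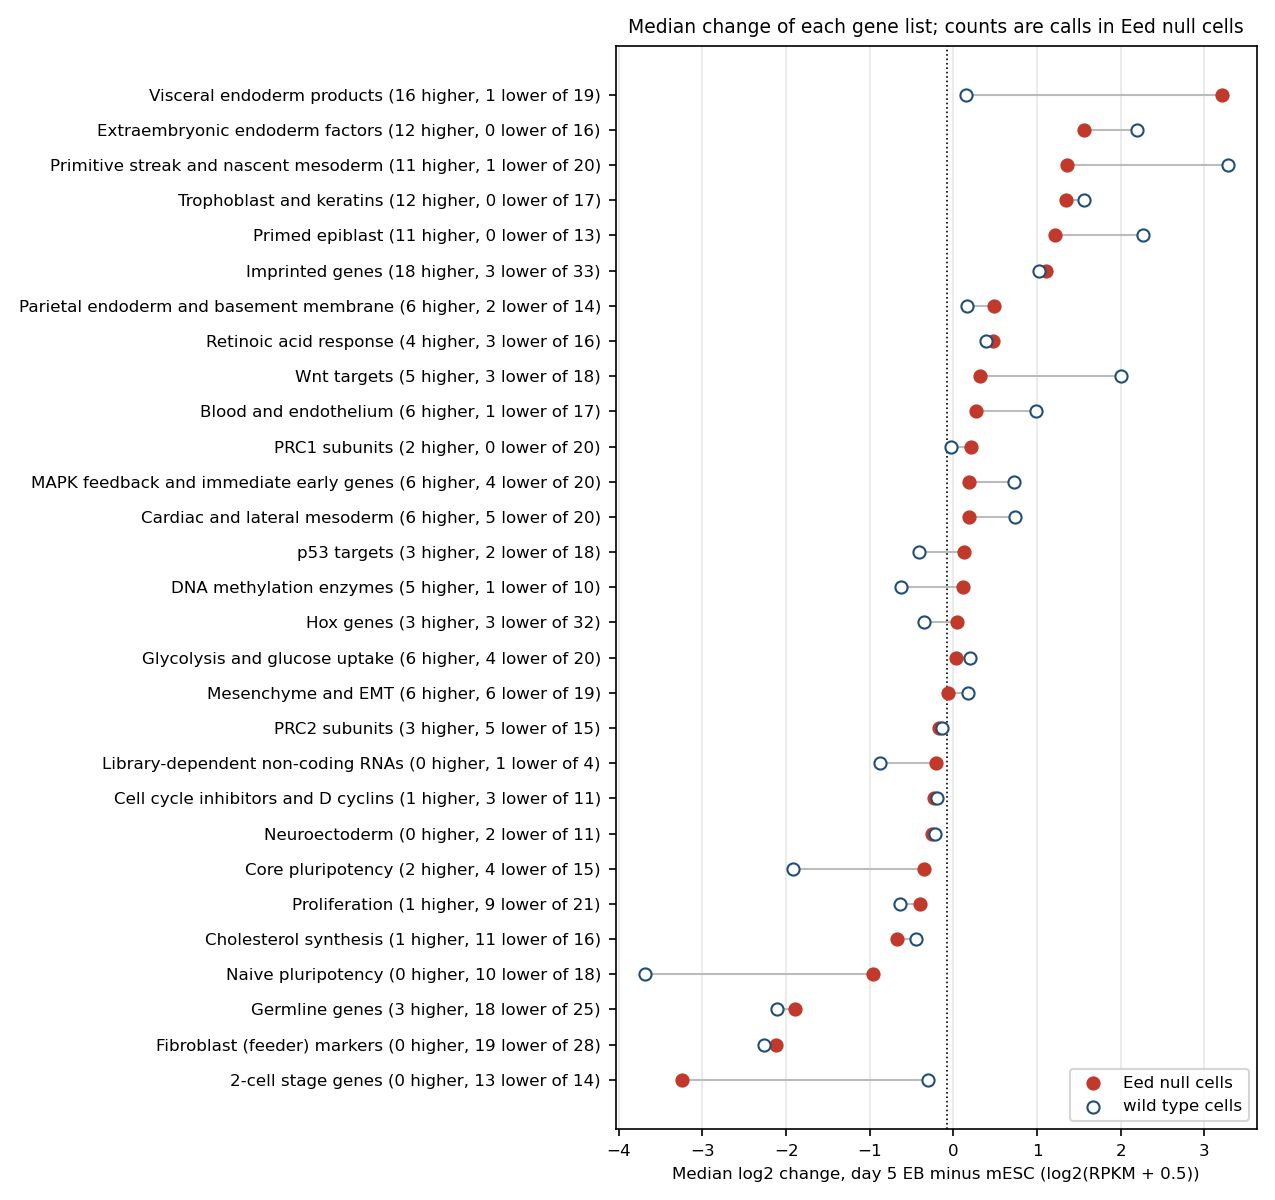
Median log2 change from mESC to EB (horizontal axis) of the 29 gene lists (1 list a row, number of genes tested beside it) in Eed null cells (filled red) and wild type cells (open blue). Dotted lines mark the median of all genes tested. Visceral endoderm products lie far to the right in Eed null cells only, naive pluripotency genes far to the left in wild type, and fibroblast markers far to the left in both.

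Metabolic and housekeeping groups were mixed. Among all genes tested, 12.5% rose and 19.9% fell in Eed null cells, beside 19.6% and 28.6% in wild type. Cholesterol synthesis genes leaned down, with 11 of 16 called lower and 1 higher (median log2 change -0.67), but only 1 fall was held, that of Insig1, a sterol sensor, with 52.5 and 47.5 RPKM in Eed null EBs, against 92.8 and 85.3 RPKM in Eed null mESCs. Cholesterol synthesis genes also leaned down in wild type, with 8 lower and 2 higher (median -0.45), and 0 differences were called negative. Under quantile scaling 6 of them were lower and 2 higher in Eed null cells. Glycolysis genes gave 6 rises and 4 falls among 20 in each genotype, but 10 of the 20 have copies. Of the 10 without, 1 rose and 4 fell in Eed null cells (median -0.83). None of the 4 falls was held, Hk2 among them, with 27.9 and 39.4 RPKM in Eed null EBs, against 74.2 and 73.2 RPKM in Eed null mESCs. The rise of Gapdh (4.61) is uncertain, since it has 19 copies. Proliferation genes gave 1 rise and 9 falls among 21 in Eed null cells (median -0.40), of which 0 and 3 were held. In wild type 2 rose and 12 fell (median -0.64). Mki67, the standard proliferation marker, was not called (adjusted p = 0.349), and the replication licensing factor Mcm2 fell by 0.82 ± 0.15. Of 4 non-coding RNAs that depend on library preparation (median -0.21), 1 was called, Snord13, with a log2 change of -1.27, while Malat1 had one of 0.21 that was not called.

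The largest falls in Eed null cells were genes of fibroblasts. Lox, which crosslinks collagen, had 0.181 and 0.226 RPKM in Eed null EBs, against 53.8 and 81.7 RPKM in Eed null mESCs (-6.57 ± 0.21, adjusted p = 2.82e-06). Acta2, the actin of smooth muscle and myofibroblasts, had 1.03 and 0.743 RPKM in Eed null EBs, against 98.6 and 139 RPKM in Eed null mESCs (-6.41 ± 0.33, adjusted p = 1.44e-05). The collagen gene Col1a2 had 0.698 and 0.752 RPKM in Eed null EBs, against 67.3 and 102 RPKM in Eed null mESCs. Wisp2, Fbln2, Col1a1, Col5a2, Ccdc80, Igfbp7 and Thbs1, all secreted or matrix proteins, had log2 changes between -5.34 and -6.06 and complete the list of 12 with Pramel7 and Aldoart1. Aldoart1 has 6 copies and is uncertain. The same fall was seen across the 28 fibroblast markers tested, of which 19 were lower and 0 higher in Eed null cells (median log2 change -2.12) and 24 lower and 2 higher in wild type (median -2.26). Their summed level was 51.9 and 58.6 RPKM in Eed null EBs, against 592 and 847 RPKM in Eed null mESCs, and 58.7 and 50.2 RPKM in wild type EBs, against 436 and 519 RPKM in wild type mESCs. The sum was thus higher in mESC than in EB libraries of both genotypes. Not every marker followed it: Dcn had 0.311 and 0.520 RPKM in Eed null EBs, against 0.186 and 0.306 RPKM in Eed null mESCs, and Lum had 0.241 and 0.0967 RPKM in Eed null EBs, against 0.138 and 0.178 RPKM in Eed null mESCs. Whether RNA of feeder cells contributed to these levels or to the fall of other genes was not tested. By the marker classes, mESC markers summed to 774 and 715 RPKM in Eed null EBs, against 1511 and 1496 RPKM in Eed null mESCs, and to 103 and 124 RPKM in wild type EBs, against 1293 and 1666 RPKM in wild type mESCs. The markers of day 5 EBs summed to 62.5 and 78.1 RPKM in Eed null EBs, against 21.8 and 20.8 RPKM in Eed null mESCs, and to 178 and 213 RPKM in wild type EBs. Visceral endoderm markers, all 7 of which rose, summed to 342 and 373 RPKM in Eed null EBs, against 4.51 and 5.90 RPKM in Eed null mESCs, and to 26.7 and 18.8 RPKM in wild type EBs.

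The largest rises named by rule were Spink3, Ttr, S100g, Afp, Apob and Cubn, given above, and 6 ribosomal protein genes: Rps27, Rpl35, Rpsa, Rps23, Rpl36 and Rpl19. Rps27 had 1422.7 and 1089.6 RPKM in Eed null EBs, against 18.3 and 17.3 RPKM in Eed null mESCs (6.09 ± 0.15). These 6 have between 6 and 27 copies, rose in wild type too, with no difference called, and are uncertain for the reason given with the pseudogenes.

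Across all 21210 genes tested, 2651 were higher and 4219 lower in Eed null EBs than in Eed null mESCs, together 32.4%. In wild type 4149 were higher and 6058 lower, together 48.1%. Changes of at least 2-fold were called for 1421 and 2501 genes in Eed null cells. Of all 2651 rises 1061 were held, and of all 4219 falls 2001. Another 63 rises and 211 falls were called in every refit that tested them and were under the level filter in the rest. Quantile scaling moved the median of all genes by 0.18 log2 and gave 4190 higher and 3274 lower, so that 56.1% of calls were rises in place of 38.6%. Median ratio scaling gave 2945 higher and 3948 lower, so that falls stayed the majority. The balance of rises and falls over the whole transcriptome therefore depends on which scaling is used. In wild type quantile scaling changed it in the same way (55.2% rises in place of 40.6%), and median ratio scaling kept falls the majority (4631 higher, 5604 lower). Without genes that have copies, 1671 rose (11.3%) and 2420 fell (16.4%) of 14785 in Eed null cells, together 27.7%, beside 46.3% in wild type. Of these genes, 1502 (10.2%) had a positive and 1100 (7.44%) a negative difference between the genotypes.

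The calls of the genotypes overlapped in part. Of the genes that rose in Eed null cells, 1670 also rose in wild type, 842 were not called there and 139 fell there. Of those that fell, 2956 also fell in wild type, 1183 were not called and 80 rose. A further 2399 genes rose and 2963 fell in wild type cells without being called in Eed null cells. Over genes, the correlation of the 2 changes was 0.72, or 0.63 among genes without copies, a description of genes that share the EB and mESC tables. The median size of a called change was 1.11 log2 units in Eed null cells and 1.19 in wild type.

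The direct test of the difference called 1987 genes positive and 1605 negative, together 16.9% of those tested. The most common kind of positive difference was a gene that fell in wild type and was not called in Eed null cells, with 1000 genes (50.3%), and 510 (25.7%) fell in both. Another 260 (13.1%) rose in Eed null cells only by call, and 139 (7.0%) rose in Eed null cells and fell in wild type. Among negative differences, 684 (42.6%) rose in wild type and were not called in Eed null cells, 390 (24.3%) fell in Eed null cells and were not called in wild type, and 307 rose in both. Of the 1987 positive differences 681 were held, and of the 1605 negative 403.

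The 10 largest positive differences fell into those classes. Morc1, which silences transposons in the germline and has 1 copy, had 28.4 and 23.4 RPKM in Eed null EBs, against 35.8 and 34.6 RPKM in Eed null mESCs, and 0.808 and 1.08 RPKM in wild type EBs, against 98.2 and 100 RPKM in wild type mESCs. It was not called in Eed null cells (adjusted p = 0.0559) and had the largest difference, 5.68 ± 0.21 (adjusted p = 0.000116). Triml2, a tripartite motif family-like gene, had 64.4 and 58.0 RPKM in Eed null EBs, against 146 and 138 RPKM in Eed null mESCs, and 1.53 and 1.77 RPKM in wild type EBs, against 201 and 242 RPKM in wild type mESCs (difference 5.48 ± 0.19, adjusted p = 0.000116). Its neighbour in name Triml1 (5.36), with 1 copy, and Trap1a (5.18), an X-linked tumour rejection antigen, had the same profile, both with falls in Eed null cells that were not held. Gpa33, a glycoprotein of intestinal epithelium, had 11.6 and 16.8 RPKM in Eed null EBs, against 10.7 and 10.2 RPKM in Eed null mESCs, and 0.391 and 0.301 RPKM in wild type EBs, against 22 and 19.7 RPKM in wild type mESCs (difference 5.06). Zfp42 and Nr0b1, of the naive network, belong to the same class. Soat2, Afp and Enpp3 instead rose in Eed null cells. Enpp3, a nucleotide-hydrolysing enzyme of the cell surface, had 9.75 and 11.4 RPKM in Eed null EBs, against 0.282 and 0.159 RPKM in Eed null mESCs, and 1.39 and 1.45 RPKM in wild type EBs, against 4.14 and 2.71 RPKM in wild type mESCs (difference 4.95 ± 0.32, adjusted p = 0.000423).

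**Figure D5:**
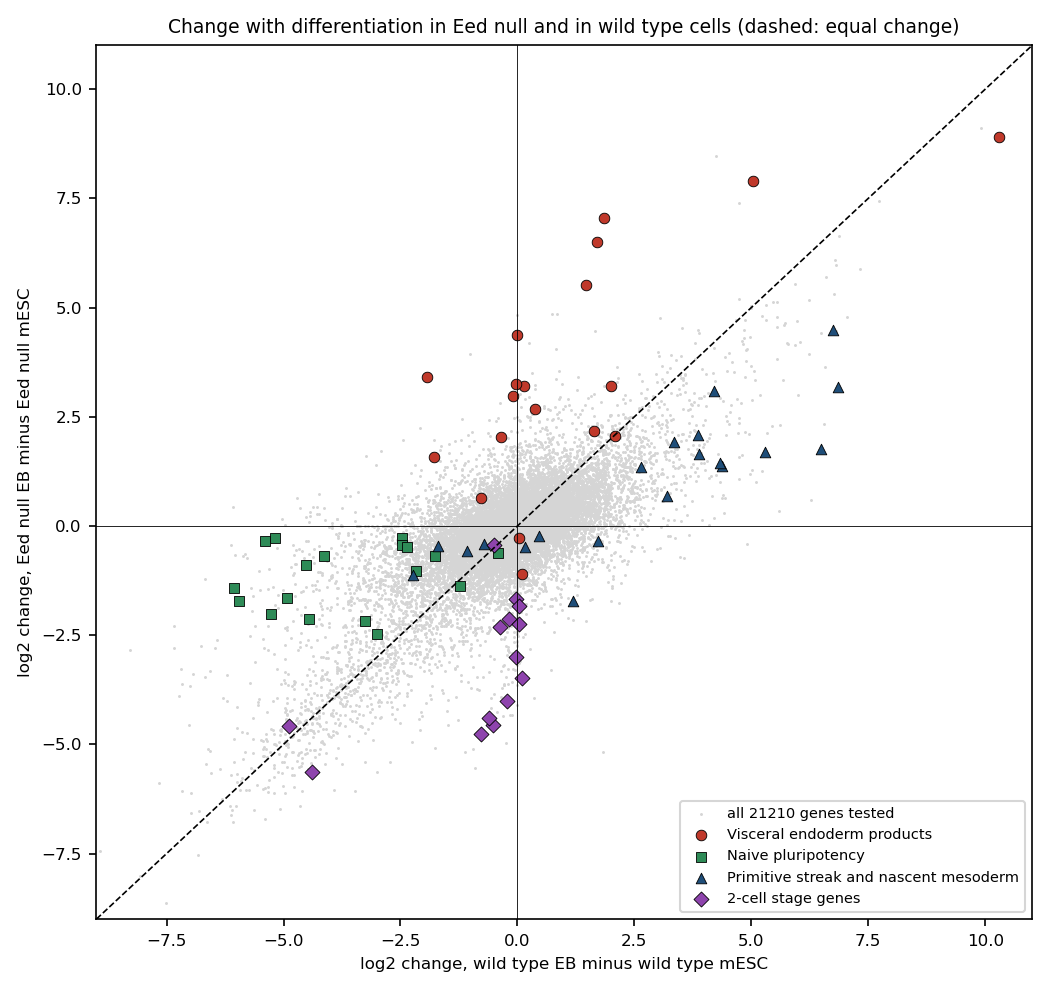
Log2 change from mESC to EB in Eed null cells (vertical axis) against that in wild type cells (horizontal axis) for 21210 genes (grey), with visceral endoderm products (red circles), naive pluripotency genes (green squares), primitive streak genes (blue triangles) and genes of the 2-cell stage (purple diamonds). The dashed line marks equal change. Visceral endoderm and naive genes lie mostly above the line, streak and 2-cell stage genes mostly below it. Both axes share the EB and mESC tables.

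The 10 largest negative differences were led by Pdlim3, a cytoskeletal protein of muscle, with 3.12 and 2.66 RPKM in Eed null EBs, against 4.01 and 3.99 RPKM in Eed null mESCs, and 22.3 and 21.7 RPKM in wild type EBs, against 0.230 and 0.280 RPKM in wild type mESCs (difference -5.31 ± 0.22, adjusted p = 0.000116). Pdlim4, of the same family, Nrp1, a co-receptor of semaphorins and VEGF, and Grrp1 likewise rose in wild type, and were higher in Eed null mESCs than in wild type mESCs. Nrp1 had 9.92 and 9.64 RPKM in Eed null EBs, against 3.74 and 5.59 RPKM in Eed null mESCs, and 73.1 and 66.5 RPKM in wild type EBs, against 1.10 and 2.14 RPKM in wild type mESCs. Trh, the precursor of a releasing hormone, ended at similar levels, 427 and 341 RPKM in Eed null EBs beside 431 and 366 RPKM in wild type EBs. Its mESC levels differed, 71.0 and 79.3 RPKM in Eed null mESCs beside 3.14 and 4.47 RPKM in wild type mESCs, and this gave the difference of -4.21. Alppl2, an alkaline phosphatase of early embryos, and Guca1a, a retinal activator of guanylate cyclase, were high in Eed null mESCs in contrast. Alppl2 had 0.119 and 0.0817 RPKM in Eed null EBs, against 20.8 and 19.6 RPKM in Eed null mESCs (-5.11 ± 0.37, adjusted p = 6.23e-05), and was below 1 RPKM in every wild type library. Guca1a had 2.19 and 1.39 RPKM in Eed null EBs, against 23.0 and 20.4 RPKM in Eed null mESCs, while wild type libraries lay between 1.27 and 3.56 RPKM. Mesp1 (-4.72 ± 0.45, adjusted p = 0.00134), Tbx20 and Zscan4d complete the list.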

How the data were processed

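The authors deposited gene tables of RPKM, 1 for EBs and 1 for mESCs, with no counts. Per the submitters' processing notes, CASAVA 1.7, STAR and the mouse build mm9 were used; which program computed RPKM, on which annotation and with what use of strand is not given in the sources used here. The tables were joined by gene ID. Depth was read from the RPKM of 1 read, taken with exon lengths of GENCODE M21, and its whole-read steps covered too few values for a count test. log2(RPKM + 0.5) of the 8 libraries was fitted with limma 3.58.1 (R 4.3.3, limma-trend, 4 residual degrees of freedom, no covariate), and p-values were adjusted by Benjamini-Hochberg over all genes tested. Files were handled with Python 3.11.15 (pandas 2.3.3, numpy 2.4.6, matplotlib 3.10.9), and copies were found with minimap2 2.31. In simulated data for the Eed null comparison (21210 genes, 200 changed) the fit recovered 43.3% of genes changed by 1 log2 unit, 91% of those changed by 2 and 92.4% of those changed by 3, with 9 false calls. The changed genes were drawn from those with a mean log2 value above 2, and each gene had the same normal spread in every group. In the data the spread differed between groups and far more genes were called. These figures therefore check the code and do not measure recovery or false calls in the data.

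The genes and the 29 lists were chosen with earlier results of these data known. Genes were named by rule: Eed, the 12 largest called rises and falls and the 10 largest positive and negative called differences. Rises and falls needed stages that did not overlap and at least 5 RPKM on average in the higher stage. Differences needed at least 5 RPKM on average in any of the 4 groups, with no rule on overlap. Clones, predicted genes, pseudogenes, small RNAs, histones and names shared by several genes were left out of both. Of each list, the first 2 members tested and up to 2 called rises and 2 falls were named. Further genes were named after their values were seen. Alternatives were other pseudocounts, filters, scalings, sets of libraries and genes, a replicate block and each library left out.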

Additional observations from a re-analysis of the deposited data

Results flagged for a closer look

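The change from mESC to EB differed between Eed null and wild type cells by the test of the difference itself for the 20 genes below, the largest called differences in each direction, which were picked for their size. Each was called whichever of the 8 libraries was left out. Values are differences of log2 changes, Eed null minus wild type. Above wild type, with a fall in wild type cells, were Morc1 (5.68), Triml2 (5.48), Triml1 (5.36), Soat2 (5.35), Trap1a (5.18), Gpa33 (5.06), Zfp42 (5.05), Enpp3 (4.95) and Nr0b1 (4.90). Afp (5.21) rose in both genotypes and further in Eed null cells. Below wild type, with a rise in wild type cells, were Pdlim3 (-5.31), Mesp1 (-4.72, listed at 0 in both wild type mESC libraries), Trh (-4.21), Pdlim4 (-4.17), Tbx20 (-4.13), Nrp1 (-4.08) and Grrp1 (-3.87). Alppl2 (-4.16), Guca1a (-4.03) and Zscan4d (-3.99) fell in Eed null cells, from a level that wild type mESCs did not have.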

How the results depend on the processing

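The count of genes called between Eed null EBs and mESCs, 6870, was 4091 among genes without copies (an alternative added after seeing the data) and 3922 with a change of at least 2-fold, and ran from 3526 to 7378 with 1 library left out. It was 3526 and 3656 without either Eed null mESC library, which vary least. The count of called differences ran from 1351 to 3528, lowest without either Eed null mESC library (1351 and 1404), and that for wild type from 7725 to 10456. With the replicate block the counts were 6336, 2845 and 9684. Same-numbered libraries did not deviate together (correlation over genes 0.06 in Eed null cells and -0.16 in wild type), so the numbers were not taken as pairs; with the wild type numbers crossed, the counts were 6741 and 3257. Of 2584 alternative values for the changes of 165 genes, 2446 kept direction and call, 111 lost the call, 14 gained it and 13 turned direction, none of them a call. These were Ezh2 (0.03), Rnf2 (0.18) and Malat1 (-0.10) under quantile scaling, and Grrp1 (0.01), Hoxb1 (0.09), Dnmt1 (0.00) and Rarb (0.15) under quantile scaling and with a library left out, where Grrp1 ran from -0.47 to 0.06, Hoxb1 from -0.17 to 0.10, Dnmt1 from -0.54 to 0.08 and Rarb from -0.22 to 0.08. Of 1554 for 83 differences, 1419 kept the call and 135 lost it. Of 463 list medians, 79 moved by more than the spread between libraries. The cause was not tested.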
